A study of Homo sapiens with 8 samples.

Results

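The genes described here encode proteins that take up and activate fatty acids and that build, coat or empty lipid droplets. They were chosen by name: PLIN2, PLIN3, HILPDA, FABP5, FABP1, LPIN1, ACSL3, ACSL5, DGAT1 and PNPLA2, with every probe set that the platform annotation assigns to 1 of these symbols and to no other. The choice was made with earlier results of these data known, so shares of the members set beside all genes below are descriptions only. The rule found 16 probe sets for 9 of the 10 genes, out of 54675 probe sets on the array, of which those with a single symbol name 19775 genes. ACSL3 has no probe set listed by that annotation and was not analysed here.

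Gene expression was measured on Affymetrix HG-U133 Plus 2.0 arrays in 2 colon cancer cell lines: DKS-5, labelled K-ras mutant, and DKO-3, labelled K-ras wild-type. The 4 groups are DKS-5 after 12 h at 1% O2 (hypoxia), DKS-5 at 21% O2 (normoxia), DKO-3 after 12 h at 1% O2 and DKO-3 at 21% O2, each with 2 arrays. Both lines were harvested at 70% confluency, and all RNA was amplified before labelling. The design asks how cells with mutant K-ras respond to low oxygen compared with cells without it. Each genotype is represented by 1 line, so genotype and line cannot be told apart, and the labels do not say whether a line is a single clone. The labels do not say whether replicate arrays stand for separate cultures. The p-values therefore describe the spread among the arrays at hand, possibly technical, and the number of arrays limits the precision. In RNA from a whole culture, fewer cells of a kind and less RNA per cell cannot be told apart.

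A lipid droplet is a store of triglyceride and cholesteryl ester inside a coat of phospholipid and protein, and the perilipins PLIN2 and PLIN3 are coat proteins found in most cell types. Fatty acids reach it after binding to carriers such as FABP5 and FABP1 and activation by acyl-CoA synthetases such as ACSL3 and ACSL5, and LPIN1 and DGAT1 act in the last steps that turn them into triglyceride. PNPLA2, also called ATGL, starts triglyceride breakdown, and HILPDA, a small droplet protein known as a target of hypoxia-inducible factors, inhibits it.

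Values below are the authors' MAS5 signals, scaled so that every array had the same mean, and a difference is on the log2(signal + 16) scale, which understates the change of a dim probe set. Signals of different probe sets are not compared with each other. The test was limma over 12735 genes, each represented by its brightest probe set. Benjamini-Hochberg adjustment was over all of them, with a threshold of 0.05. Errors of log2 differences are limma's standard errors, for 2 arrays a group (4 arrays a side where lines or oxygen levels were averaged). Their spread is pooled over the 4 groups and moderated towards a trend across genes, so it is not that of the compared arrays alone. Of the 9 genes with a probe set, 8 passed the filter on dim probe sets, a mean signal of 13.8 over the 8 arrays, and 13 of their probe sets did.

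Colon epithelial markers, taken over both lines, fit the label of the cells, and 8 of 9 passed the filter. The filter is on the mean of all 8 arrays, so passing it does not show a marker in each line. Summed signals of the list were 19199 to 21543 in DKS-5 hypoxia and 16704 to 17922 in DKS-5 normoxia. In DKO-3 they were 18893 to 20329 in hypoxia and 17433 to 19237 in normoxia. These sums rest mostly on EPCAM, CDH1 and KRT18, and several markers on the list moved with the groups. EPCAM lay between 6697 and 7749 in DKS-5 and between 5315 and 6247 in DKO-3. KRT8 and CDX2 were higher in hypoxia without overlap in DKO-3 and overlapped in DKS-5. EPCAM, KRT8 and CDX2 were not called. KRT20 lay between 6.19 and 15.5 in DKS-5, around or below the filter, and between 301 and 445 in DKO-3. KRT20 thus passed the filter through its DKO-3 arrays. The VIL1 probe set tested lay between 54.7 and 103 in DKS-5 and between 12.8 and 17.5 in DKO-3, around the filter. This VIL1 probe set was higher in DKS-5 by 1.65 ± 0.18 (adjusted p = 2.29e-05). The 3 VIL1 probe sets past the filter differed by 0.60 to 1.65 averaged over oxygen and by -0.22 to 1.77 in normoxia. KRT19 rose in hypoxia averaged over the lines (adjusted p = 0.00118) and was lower in DKS-5 by -0.96 ± 0.17 (adjusted p = 0.00191). The part of these markers in the results below was not tested. Of 8 adipocyte markers, which include other droplet proteins, 3 passed (LEP, LPL and CD36), and ADIPOQ, PLIN1, PLIN4, CIDEC and FABP4 did not. Among 6 hepatocyte markers SERPINA1 and CYP3A4 passed, and the list's summed signal was 83.6 to 146 in the 4 DKS-5 arrays and 191 to 231 in the 4 DKO-3 arrays, and its part in the differences between lines was not tested. Of 10 blood, endothelial and stromal markers with a probe set, 3 passed (COL1A1, ACTA2 and HBB), with summed signals of 130 to 209 over the 8 arrays. The oxygen labels were checked with 6 tested genes known to respond to hypoxia. Of these, 5 were called higher after hypoxia in DKS-5 cells and 4 in DKO-3 cells, where 0.503% and 0.346% of all genes were called. BNIP3 was called in neither line. It read 88.4 and 57.2 in DKS-5 hypoxia, against 52.2 and 45.0 in DKS-5 normoxia, and 64.8 and 31.9 in DKO-3 hypoxia, against 85.3 and 58.3 in DKO-3 normoxia. The 3′ to 5′ signal ratio of ACTB, a sign of RNA quality, was 54.8 and 25.6 in DKS-5 hypoxia, 55.1 and 34.3 in DKS-5 normoxia, 11.5 and 11.0 in DKO-3 hypoxia and 49.0 and 14.9 in DKO-3 normoxia, so it moved with hypoxia in DKO-3 and, in hypoxia, separated the lines without overlap.

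The promoters of the 2 droplet coat genes are shown because hypoxia-inducible factors bind DNA at the core letters ACGTG or GCGTG, and these stretches hold the most matches among the members that RefSeq promoters cover (build GRCh38.p14, 7 of the 10 genes matched). Each runs 5′ to 3′ on the gene's strand from 250 bases before the annotated start to 50 bases after it, on the minus strand at chr9:19127443-19127742 for PLIN2 and at chr19:4867618-4867917 for PLIN3. Capitals mark every match on either strand, where CACGT and CACGC are matches read from the other strand.
PLIN2: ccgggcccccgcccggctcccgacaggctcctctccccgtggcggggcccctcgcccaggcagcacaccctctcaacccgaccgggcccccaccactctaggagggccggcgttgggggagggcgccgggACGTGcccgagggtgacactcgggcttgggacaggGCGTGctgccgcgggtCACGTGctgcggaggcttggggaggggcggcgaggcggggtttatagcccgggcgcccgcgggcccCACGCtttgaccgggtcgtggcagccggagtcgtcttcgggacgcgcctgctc
PLIN3: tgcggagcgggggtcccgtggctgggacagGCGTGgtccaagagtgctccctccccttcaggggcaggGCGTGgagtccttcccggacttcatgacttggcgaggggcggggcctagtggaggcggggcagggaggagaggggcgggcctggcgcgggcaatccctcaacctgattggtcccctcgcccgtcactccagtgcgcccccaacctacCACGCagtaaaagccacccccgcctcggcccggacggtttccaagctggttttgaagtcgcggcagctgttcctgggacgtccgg
PLIN2 held 3 matches to ACGTG and 2 to GCGTG, and 2 of the ACGTG matches overlap in the palindrome CACGTG. PLIN3 held 3 matches to GCGTG and none to ACGTG. Among 35116 RefSeq promoters of the same length, 21.4% held ACGTG, 36.5% held GCGTG, 48.4% held at least 1 of them and 7.26% held CACGTG. LPIN1 has 3 annotated starts, of which 2 held 1 GCGTG each, ACSL3 held 1 GCGTG, 1 of the 2 ACSL5 starts held 1 ACGTG, and the FABP1 and PNPLA2 stretches held neither. HILPDA, FABP5 and DGAT1 are named only. A match describes the letters and does not show that a factor binds there.

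HILPDA was the member called higher in hypoxia, and it was called in both lines. Its probe set 218507_at had signals of 1569 and 1732 in DKS-5 hypoxia, against 661 and 790 in DKS-5 normoxia. The same probe set read 1383 and 1309 in DKO-3 hypoxia, against 500.6 and 726 in DKO-3 normoxia. All 4 hypoxia arrays lay above all 4 normoxia arrays, with no overlap in either line. The rise was 1.17 ± 0.21 on the log2 scale in DKS-5 (2.25-fold, adjusted p = 0.0165) and 1.14 ± 0.21 in DKO-3 (2.20-fold, adjusted p = 0.0266). Averaged over the lines it was 1.15 ± 0.15 (2.23-fold, adjusted p = 0.000494), which ranked 57 by size and 36 by p among the 12735 genes. The difference between the responses of the lines, DKS-5 minus DKO-3, was 0.04 with a 95% interval of -0.61 to 0.68 (adjusted p = 1.00), so a response that differed by up to about that much could not be seen with these arrays.

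The averaged HILPDA rise kept its call without any single array and under the other 11 settings tried, at 0.96 to 1.29 with adjusted p of 5.36e-05 to 0.0204. The calls in single lines rested on few arrays. In DKS-5 the adjusted p was 0.114 without hypoxia replicate 2, 0.428 without normoxia replicate 1 and 0.0865 without normoxia replicate 2. In DKO-3 it was 0.439 without hypoxia replicate 1, 0.197 without hypoxia replicate 2 and 0.451 without normoxia replicate 1, and 0.0532 and 0.0541 when normoxia replicate 1 or 2 of DKS-5 was left out of the shared spread. With the ACTB ratio as a covariate the DKO-3 difference was 0.80 (adjusted p = 0.725) and the DKS-5 difference 1.12 (adjusted p = 0.0154).

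A second, dimmer HILPDA probe set, 1554452_a_at, had the lines in the opposite order in hypoxia. It read 45.3 and 48.1 in DKS-5 hypoxia, against 23.3 and 34.6 in DKS-5 normoxia, and 75.2 and 72.8 in DKO-3 hypoxia, against 5.52 and 32.7 in DKO-3 normoxia. Hypoxia arrays were again above normoxia arrays in both lines. In the fit over 32768 probe sets its difference was 0.49 ± 0.33 in DKS-5 (adjusted p = 0.964) and 1.47 ± 0.33 in DKO-3 (adjusted p = 0.146), and 0.98 ± 0.23 averaged over the lines (adjusted p = 0.0920). The difference of the responses was -0.98 ± 0.47 here (unadjusted p = 0.0525, adjusted p = 1.00). In hypoxia both DKS-5 arrays lay below both DKO-3 arrays with this probe set and above them with 218507_at, and neither line difference was called (adjusted p = 0.476 and 0.516).

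**Figure D1:**
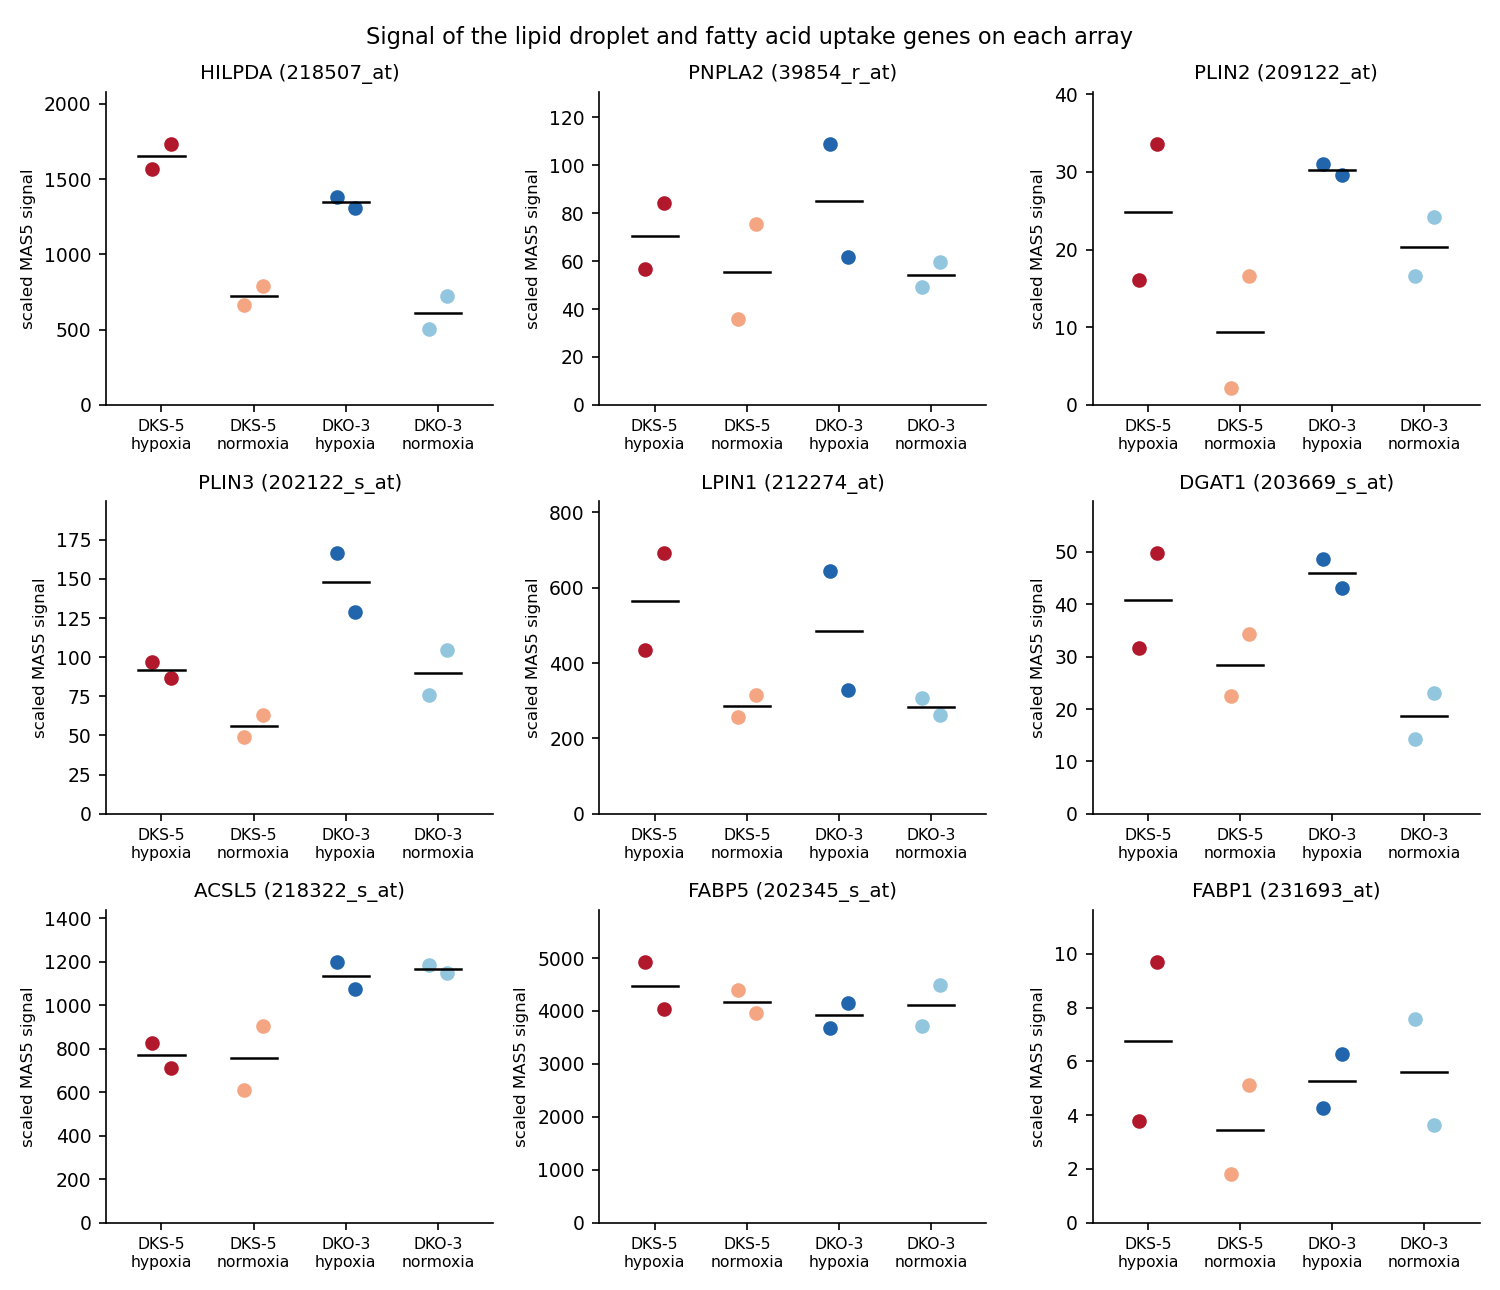
Scaled MAS5 signal of the brightest probe set of each of the 9 genes, on linear axes that start at 0, with 1 panel per gene, 1 point per array and a line at each group's mean. The HILPDA probe set 218507_at sits between 1309 and 1732 on the 4 hypoxia arrays and between 500.6 and 790 on the 4 normoxia arrays, while FABP5 lies between 3685 and 4922 on all 8.

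PNPLA2, the lipase that HILPDA inhibits, was not called in either line. Its probe set 39854_r_at read 56.6 and 84.3 in DKS-5 hypoxia, against 36.0 and 75.3 in DKS-5 normoxia, and 109 and 61.8 in DKO-3 hypoxia, against 49.1 and 59.5 in DKO-3 normoxia. The groups overlapped in DKS-5 and not in DKO-3. Averaged over the lines the difference was 0.40 ± 0.22 (adjusted p = 0.432). The other probe set, 212705_x_at, read 26.7 and 40.3 in DKS-5 hypoxia, against 18.0 and 18.1 in DKS-5 normoxia, and 47.7 and 35.6 in DKO-3 hypoxia, against 20.5 and 27.8 in DKO-3 normoxia. Hypoxia arrays were above normoxia arrays in each line, by 0.52 ± 0.18 averaged over the lines (adjusted p = 0.298 over the probe sets).

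The coat genes PLIN2 and PLIN3 had higher values on most hypoxia arrays but passed no test. PLIN2 (209122_at) read 16.1 and 33.6 in DKS-5 hypoxia, against 2.20 and 16.5 in DKS-5 normoxia, and 31.1 and 29.6 in DKO-3 hypoxia, against 16.6 and 24.2 in DKO-3 normoxia. The DKS-5 groups overlapped and the DKO-3 groups did not, and the values, 2.20 to 33.6, lie around the constant of 16 that was added before taking logs. Its difference was 0.71 ± 0.30 in DKS-5 (adjusted p = 0.653), 0.36 ± 0.30 in DKO-3 (adjusted p = 0.718) and 0.53 ± 0.21 averaged over the lines (adjusted p = 0.271). A second PLIN2 probe set, 215895_x_at, lay between 8.48 and 19.5 on the 8 arrays, with a mean below the filter, and was not tested.

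PLIN3 (202122_s_at) read 96.8 and 86.7 in DKS-5 hypoxia, against 48.7 and 62.9 in DKS-5 normoxia, and 166 and 129 in DKO-3 hypoxia, against 75.9 and 104 in DKO-3 normoxia. Hypoxia arrays were above normoxia arrays in each line, but the groups overlapped once the lines were put together, since the DKS-5 hypoxia arrays lay within the range of DKO-3 normoxia. The difference was 0.59 ± 0.26 in DKS-5 (adjusted p = 0.671), 0.63 ± 0.26 in DKO-3 (adjusted p = 0.416) and 0.61 ± 0.18 averaged over the lines (adjusted p = 0.140).

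Of the 2 members that make triglyceride, LPIN1 had the larger averaged difference after HILPDA. LPIN1, a phosphatidate phosphatase that yields diacylglycerol, read 436 and 692 in DKS-5 hypoxia, against 256 and 315 in DKS-5 normoxia, with its probe set 212274_at. In DKO-3 it read 645 and 328 in hypoxia, against 307 and 262 in normoxia. All 4 hypoxia arrays were above all 4 normoxia arrays, although the lower DKO-3 hypoxia array, at 328, was close to the highest normoxia array, at 315. The difference averaged over the lines was 0.79 ± 0.22 (1.73-fold, adjusted p = 0.0998), from 0.91 ± 0.30 in DKS-5 (adjusted p = 0.527) and 0.67 ± 0.30 in DKO-3 (adjusted p = 0.459). It passed the threshold without DKS-5 hypoxia replicate 1 (adjusted p = 0.0191) and without DKO-3 hypoxia replicate 2 (adjusted p = 0.0381). The values in single lines also rested on few arrays: the DKS-5 difference was 0.59 without hypoxia replicate 2, and the DKO-3 difference was 0.20 without hypoxia replicate 1 and 1.14 without hypoxia replicate 2. The other LPIN1 probe sets differed by 0.71 ± 0.19 (212276_at, adjusted p = 0.143) and 0.26 ± 0.19 (212272_at, adjusted p = 0.663) over the probe sets, in the same direction.

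DGAT1, which adds the last fatty acid to diacylglycerol, read 31.7 and 49.8 in DKS-5 hypoxia, against 22.5 and 34.3 in DKS-5 normoxia, and 48.7 and 43.2 in DKO-3 hypoxia, against 14.2 and 23.0 in DKO-3 normoxia (203669_s_at). The DKO-3 groups were apart and the DKS-5 groups overlapped. The difference was 0.35 ± 0.27 in DKS-5 (adjusted p = 0.863), 0.85 ± 0.27 in DKO-3 (adjusted p = 0.293) and 0.60 ± 0.19 averaged over the lines (adjusted p = 0.165).

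The genes of fatty acid activation and binding that were tested, ACSL5 and FABP5, were not called in hypoxia. ACSL5 (218322_s_at) read 826 and 713 in DKS-5 hypoxia, against 611 and 905 in DKS-5 normoxia, and 1199 and 1073 in DKO-3 hypoxia, against 1187 and 1150 in DKO-3 normoxia. The oxygen groups overlapped in both lines, and the averaged difference was 0.00 with a 95% interval of -0.33 to 0.33. The other ACSL5 probe set, 222592_s_at, differed by 0.26 ± 0.16 (adjusted p = 0.602 over the probe sets). FABP5, a carrier of fatty acids in the cytosol (202345_s_at), read 4922 and 4032 in DKS-5 hypoxia, against 4395 and 3954 in DKS-5 normoxia, and 3685 and 4145 in DKO-3 hypoxia, against 3719 and 4498 in DKO-3 normoxia. Its groups overlapped too, and the averaged difference was 0.02 with an interval of -0.22 to 0.25. The intervals of ACSL5 218322_s_at and FABP5 do not reach the 1.15 by which HILPDA rose.

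FABP1, the carrier typical of liver and intestine, was dim throughout. Its probe set 231693_at read 3.79 and 9.69 in DKS-5 hypoxia, against 1.82 and 5.11 in DKS-5 normoxia, and 4.27 and 6.26 in DKO-3 hypoxia, against 7.58 and 3.63 in DKO-3 normoxia, and 205892_s_at lay between 0.669 and 2.40. All 16 values were below the filter, so FABP1 was not tested, and no change could be read at this brightness.

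Counted together, 1 of the 8 members tested was called in hypoxia against normoxia in each line, HILPDA. Among all 12735 genes 0.503% were called in DKS-5 and 0.346% in DKO-3, all of them higher. Averaged over the lines HILPDA was again the 1 member called, where 1.19% of all genes were called (1.14% higher), and 5 of the 8 had an unadjusted p under 0.05 (14.3% of all genes). The median difference of the 8 was 0.47 in DKS-5 and 0.56 in DKO-3, and the medians of all genes were 0.02 and 0.03. Values were positive for 8 of 8 members in DKS-5 and 6 of 8 in DKO-3, where 53.2% and 54.4% of all genes were positive. Of the 13 probe sets 13 and 11 were positive, where 50% and 55.4% of all probe sets were. Several of the 13 belong to the same gene, so they are not separate members. Both hypoxia arrays lay above both normoxia arrays for 3 of the 8 in DKS-5 (19.8% of all genes) and for 6 of the 8 in DKO-3 (25% of all genes). All 4 hypoxia arrays lay above all 4 normoxia arrays for HILPDA and LPIN1, 2 of the 8, against 4.09% of all genes. None of the 8 was called for a difference between the responses of the lines by limma, where 0% of all genes were called, and none had an unadjusted p under 0.05 (2.62% of all genes did).

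**Figure D2:**
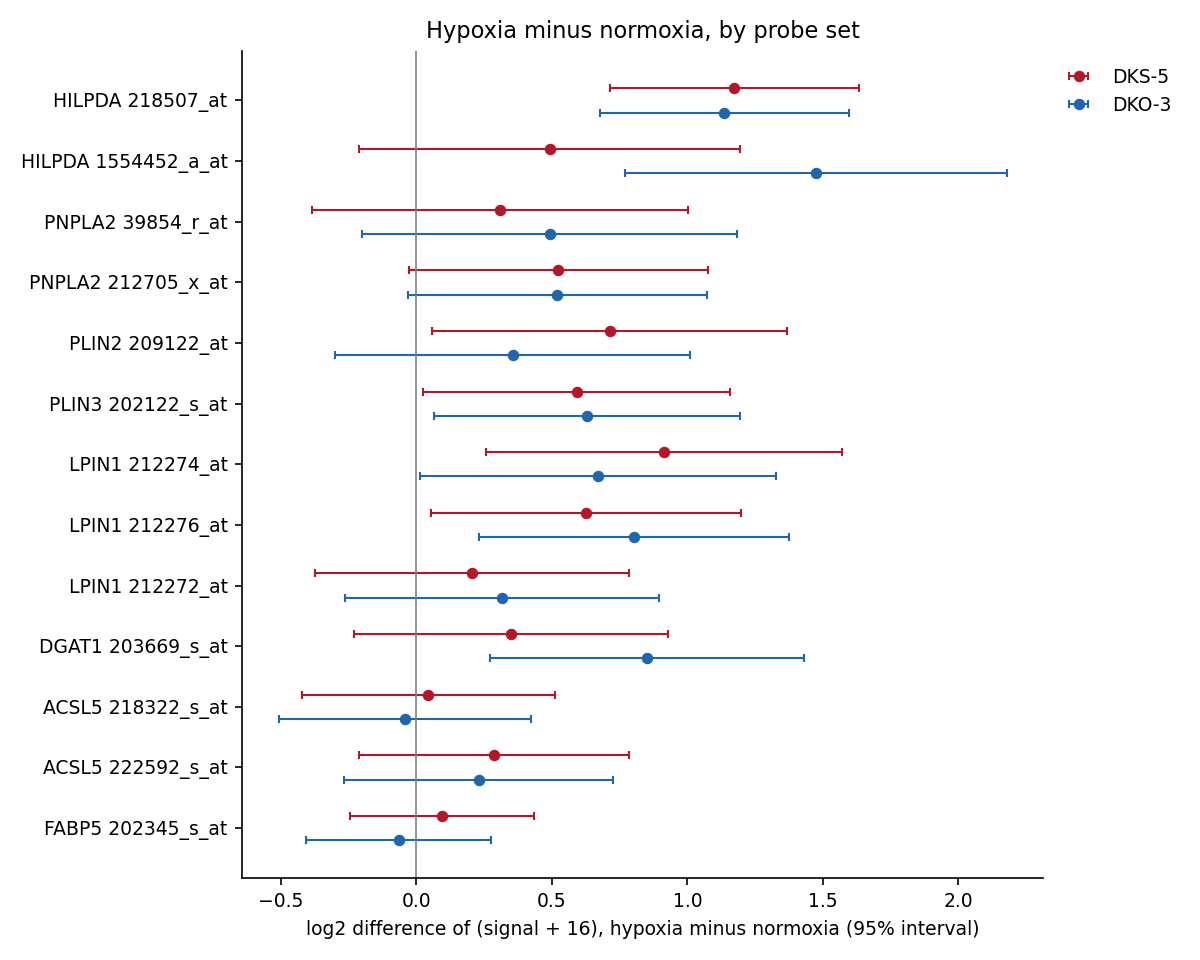
Log2 difference of (signal + 16), hypoxia minus normoxia, for each member probe set past the filter, by line, with bars for 95% intervals from the fit over all probe sets. HILPDA 218507_at stands at 1.17 in DKS-5 and 1.14 in DKO-3, its second probe set at 0.49 and 1.47, and FABP5 and ACSL5 218322_s_at lie near 0 in both lines.

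Between the lines, ACSL5 was the 1 member of 8 called averaged over oxygen, where 9.12% of all genes were called. ACSL5, which activates long-chain fatty acids and is abundant in intestinal epithelium, was lower in DKS-5 at both oxygen levels, with the signals given above: the 4 DKS-5 arrays lay between 611 and 905 and the 4 DKO-3 arrays between 1073 and 1199. The difference, DKS-5 minus DKO-3, averaged over oxygen was -0.60 ± 0.15 (0.661-fold, adjusted p = 0.0222). Taken separately it was -0.55 ± 0.22 in hypoxia and -0.64 ± 0.22 in normoxia, and neither passed (adjusted p = 0.185 in each). The normoxia difference ran from -0.92 to -0.36 when single arrays were left out, with -0.36 without DKS-5 normoxia replicate 1. Its second probe set, 222592_s_at, read 962 and 695 in DKS-5 hypoxia and 566 and 786 in DKS-5 normoxia, against 1107 and 986 in DKO-3 hypoxia and 802 and 985 in DKO-3 normoxia. It was lower in DKS-5 within each oxygen level without overlap, but overlapped once the levels were put together, and its averaged difference of -0.38 ± 0.16 did not pass (adjusted p = 0.226).

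The ACSL5 call ended without DKS-5 normoxia replicate 1 (adjusted p = 0.171), DKO-3 hypoxia replicate 1 (0.106), DKO-3 normoxia replicate 1 (0.0725) or DKO-3 normoxia replicate 2 (0.0694). It also ended with the ACTB ratio as a covariate (-0.58, adjusted p = 0.235), with no filter (0.0532) and with the mean of both probe sets (0.0561), and the difference stayed between -0.82 and -0.46 throughout. On the values as deposited, with no scaling of arrays, the median of all genes moved to -0.21 and ACSL5 to -0.82.

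PLIN3 also had lower values in DKS-5 at both oxygen levels, by 0.60 in hypoxia and 0.56 in normoxia on the log2 scale, with no overlap in either, and its averaged difference of -0.58 ± 0.18 missed the threshold (adjusted p = 0.0621). PLIN2 averaged -0.39 ± 0.21 (adjusted p = 0.306), with both DKS-5 normoxia arrays below both DKO-3 normoxia arrays and an overlap in hypoxia. HILPDA averaged 0.27 ± 0.15 (adjusted p = 0.317) and was higher in DKS-5 than in DKO-3 without overlap in hypoxia, at 1569 and 1732 against 1383 and 1309. LPIN1 averaged 0.12 ± 0.22 with 212274_at and 0.51 ± 0.19 with 212276_at (adjusted p = 0.149 over the probe sets), so its probe sets gave different sizes. DGAT1, FABP5 and PNPLA2 averaged 0.11, 0.11 and -0.12, with intervals of -0.29 to 0.51, -0.13 to 0.34 and -0.59 to 0.36.

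Of the 8 members, 0 were called between the lines in hypoxia and 0 in normoxia by limma, where 4.38% and 2.54% of all genes were called, and 2 members in each had an unadjusted p under 0.05, against 18.4% and 11.4% of all genes. Averaged over oxygen 1 of the 8 was called, lower, where 9.12% of all genes were called, 379 higher and 782 lower (6.14% lower). With no scaling of arrays those counts were 138 higher and 1632 lower, and PLIN3 passed beside ACSL5 (-0.78, adjusted p = 0.0103). The median of the members was -0.18 in hypoxia, -0.01 in normoxia and -0.00 averaged, and that of all genes was -0.03, 0.01 and -0.01. DKS-5 arrays lay below DKO-3 arrays for 2 of the 8 in hypoxia (25.9% of all genes), for 3 in normoxia (22.2%) and for 1 over both (8.46%), and they lay above for 1 in hypoxia, HILPDA (19.1%).

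**Figure D3:**
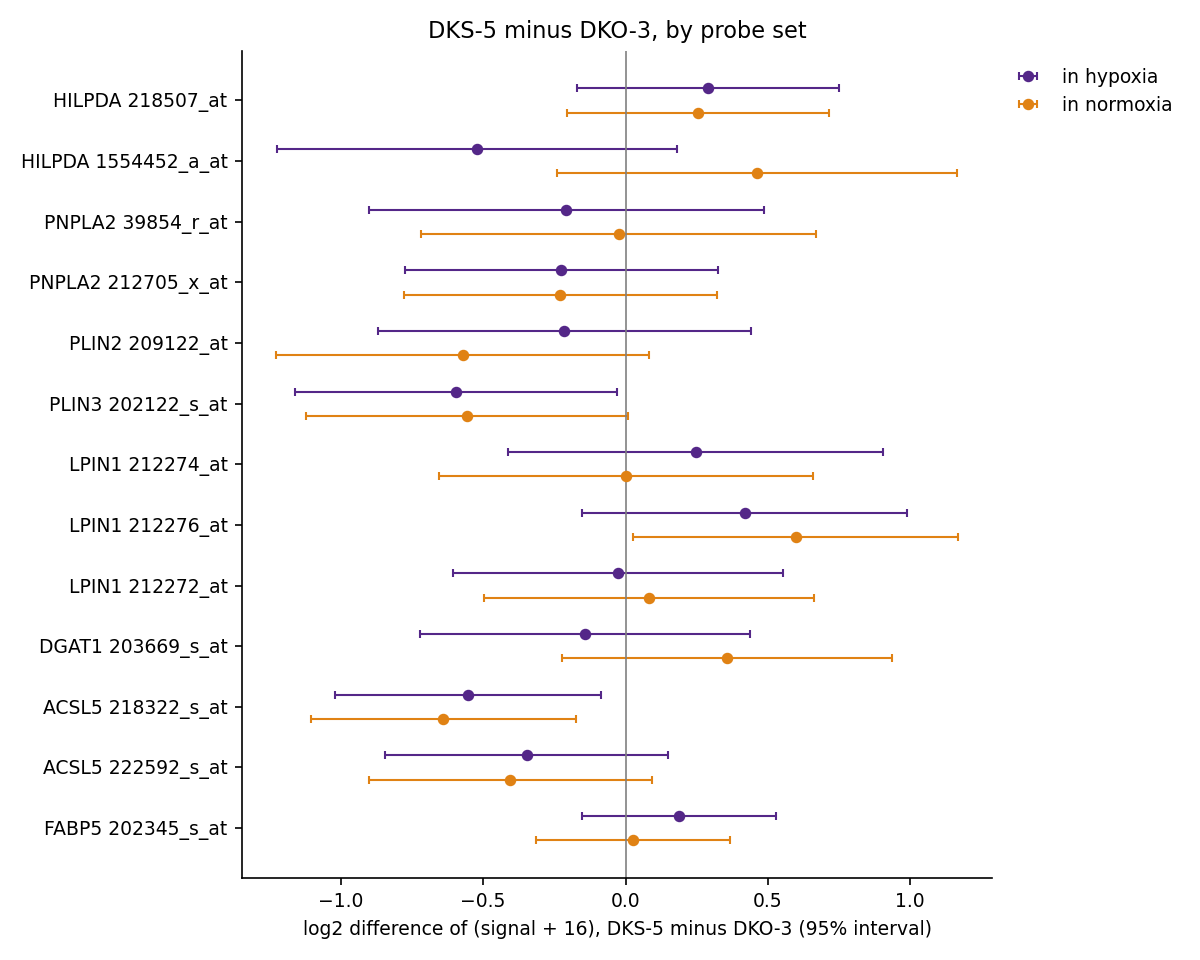
Log2 difference of (signal + 16), DKS-5 minus DKO-3, for each member probe set past the filter in hypoxia and in normoxia, with bars for 95% intervals. ACSL5 218322_s_at lies at -0.55 in hypoxia and -0.64 in normoxia and PLIN3 at -0.60 and -0.56, while the HILPDA probe set 1554452_a_at has opposite signs at the 2 oxygen levels.

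Across the 8 arrays the genes with the pattern most like HILPDA, by Pearson's r of log2 values over 12727 other tested genes, were CDK2AP2 (0.986), EGLN3 (0.982), WDR54 (0.977), ANKZF1 (0.970) and ZNF395 (0.969). For PLIN2 they were KREMEN1 (0.975), LY6G5C (0.966), CABIN1 (0.961), C11orf68 (0.950) and ABHD16A (0.949). The points share lines, oxygen levels and arrays, so these values only describe the arrays, and EGLN3, an oxygen-sensing prolyl hydroxylase, was also among the hypoxia check genes.

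Other genes of the same pathways were taken from 6 lists of lipid genes, without the members. In the lipid droplet coat and assembly list, 10 of 17 genes were tested and 0 were called in hypoxia in DKS-5, in DKO-3 or averaged over the lines by limma, with 0, 2 and 1 at an unadjusted p under 0.05, which 6.92%, 10.5% and 14.3% of all genes reached. In the mitochondrial fatty acid oxidation list it was 0 of 16 tested, with 1, 1 and 3 at that level, and among 6 lipolysis genes 0, with 1, 1 and 2. In the synthesis list 1 of 10 tested was called, GPAT3, a first-step enzyme of triglyceride synthesis, and it was lower. GPAT3 read 536 and 486 in DKS-5 hypoxia, against 734 and 881 in DKS-5 normoxia, and 654 and 801 in DKO-3 hypoxia, against 1281 and 1170 in DKO-3 normoxia. Hypoxia arrays were below normoxia arrays in each line, by -0.69 ± 0.15 on average (adjusted p = 0.0283). The call held when DKS-5 hypoxia replicate 1 was left out and ended without any other single array, with adjusted p up to 0.185. It also ended with the ACTB ratio as a covariate (0.221), with no filter (0.0710) and with no variance trend (0.0576).

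VLDLR and ANGPTL4 were the genes of these lists called higher in hypoxia in both lines. VLDLR, a receptor for triglyceride-rich lipoproteins, read 73.1 and 98.8 in DKS-5 hypoxia, against 19.2 and 24.5 in DKS-5 normoxia, and 116 and 92.4 in DKO-3 hypoxia, against 25.3 and 16.2 in DKO-3 normoxia. It rose by 1.42 ± 0.26 in DKS-5 (adjusted p = 0.0162) and 1.71 ± 0.26 in DKO-3 (adjusted p = 0.00623), and was the 1 of 14 tested in the uptake, activation and binding list to be called. Averaged over the lines it rose by 1.57 ± 0.18 (adjusted p = 0.000141), a call kept without any single array and under the other 11 settings, with 0.89 where the added constant was 64. In DKS-5 its call ended without hypoxia replicate 2 (0.198), normoxia replicate 1 (0.314) or normoxia replicate 2 (0.0898), with no filter (0.143), with no scaling (0.132) and with only the 4 arrays compared (0.0826). In DKO-3 it ended without hypoxia replicate 1 (0.193) or normoxia replicate 2 (0.0710), with no filter (0.0909) and with the ACTB ratio as a covariate (0.0930).

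ANGPTL4, a secreted inhibitor of lipoprotein lipase, read 81.6 and 101 in DKS-5 hypoxia, against 2.65 and 8.36 in DKS-5 normoxia, and 40.7 and 33.5 in DKO-3 hypoxia, against 1.52 and 2.27 in DKO-3 normoxia. All 4 normoxia values lie below the filter of 13.8, so ANGPTL4 passed it through its hypoxia arrays and the size of its difference is set by the added constant. In DKS-5 the fitted difference was 2.33 with the constant of 16 (adjusted p = 0.000128), 3.97 with 1, 1.16 with 64, and 1.13 with the mean of all probe sets. In DKO-3 it was 1.57 (adjusted p = 0.00945), 3.73 and 0.62. The call averaged over the lines (adjusted p = 1.47e-05) was kept without any single array and under the other alternatives that gave it a value. In DKO-3 the call ended when any 1 of that line's 4 arrays was left out (adjusted p of 0.0525 to 0.206), with the ACTB ratio as a covariate (0.218), with the mean of all probe sets (0.158) and with no filter (0.0782).

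Between the lines, where 9.12% of all genes were called averaged over oxygen, genes of each of these lists were called too. In the lipolysis list 3 of 6 were lower in DKS-5 averaged over oxygen: G0S2, another inhibitor of PNPLA2, by -1.47 ± 0.18 (adjusted p = 7.27e-05), PNPLA3, a relative of PNPLA2, by -1.29 ± 0.26 (adjusted p = 0.00501) and MGLL, which splits monoglyceride, by -0.66 ± 0.19 (adjusted p = 0.0408). G0S2 read 28.3 and 16.7 in DKS-5 hypoxia and 26.1 and 18.1 in DKS-5 normoxia, against 86.4 and 81.7 in DKO-3 hypoxia and 106 and 85.5 in DKO-3 normoxia, with no overlap between the lines; with a constant of 64 the difference was -0.83. PNPLA3 read 128 and 118 in DKS-5 hypoxia and 61.4 and 57.6 in DKS-5 normoxia, against 536 and 181 in DKO-3 hypoxia and 220 and 139 in DKO-3 normoxia. The DKS-5 arrays were below all DKO-3 arrays, and the 2 DKO-3 hypoxia arrays were far apart. The other PNPLA3 probe set past the filter differed by -0.45. G0S2 and PNPLA3 kept these calls without any single array, and MGLL kept its call only without DKS-5 hypoxia replicate 2 (adjusted p up to 0.163 without another). The MGLL call also ended with the ACTB ratio as a covariate (-0.32, adjusted p = 0.578), with no filter (0.119), with quantile normalization (0.0634) and with every probe set tested on its own (0.0643).

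In the synthesis list AGPAT4 (-1.90 ± 0.21, adjusted p = 2.84e-05) and GPAT3 (-0.54 ± 0.15, adjusted p = 0.0290) were lower in DKS-5 and AGPAT5 (0.63 ± 0.15, adjusted p = 0.0159) was higher; the AGPAT enzymes make phosphatidic acid. AGPAT4 read 52.2 and 23.1 in DKS-5 hypoxia and 36.9 and 27.4 in DKS-5 normoxia, against 140 and 116 in DKO-3 hypoxia and 277 and 183 in DKO-3 normoxia. In the uptake list ACSL6, a relative of ACSL5, was higher in DKS-5 by 1.70 ± 0.18 (adjusted p = 1.97e-05), the opposite direction to ACSL5. ACSL6 read 65.3 and 92.7 in DKS-5 hypoxia and 70.6 and 76.5 in DKS-5 normoxia, against 14.4 and 13.8 in DKO-3 hypoxia and 14.6 and 6.89 in DKO-3 normoxia. AGPAT4 and ACSL6 showed no overlap between the lines and kept their calls without any single array. With the mean of all probe sets AGPAT4 differed by -1.11 and ACSL6 by 0.46, both still called. The DKO-3 values of ACSL6, 6.89 to 14.6, lie around or below the filter of 13.8, so ACSL6 passed it through its DKS-5 arrays. The size of its difference depends on the added constant, at 2.57 with a constant of 1 and 0.87 with 64. GPAT3 lost its call without either DKS-5 normoxia array, DKO-3 hypoxia replicate 2 or either DKO-3 normoxia array (up to 0.173), and AGPAT5 without either DKS-5 normoxia array, DKO-3 hypoxia replicate 1 or DKO-3 normoxia replicate 2 (up to 0.0978). The ACTB ratio as a covariate ended both calls (0.191 for GPAT3 and 0.186 for AGPAT5). The AGPAT5 call also ended with no scaling (0.40, adjusted p = 0.135) and with the mean of its probe sets (0.0523), of which the other differed by 0.27.

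In the oxidation list CPT1A, which passes fatty acids to mitochondria, was higher in DKS-5 by 0.91 ± 0.17 (adjusted p = 0.00327) and its relative CPT1C was called lower (adjusted p = 0.00143). CPT1A read 148 and 148 in DKS-5 hypoxia and 113 and 140 in DKS-5 normoxia, against 72.0 and 54.0 in DKO-3 hypoxia and 65.2 and 71.1 in DKO-3 normoxia. The lines did not overlap for CPT1A, but its 4 probe sets past the filter differed by 0.19 to 0.91, with a median of 0.53, and the largest is the one tested. CPT1C read 2.52 and 7.22 in DKS-5 hypoxia and 5.18 and 15.6 in DKS-5 normoxia, against 33.7 and 22.6 in DKO-3 hypoxia and 39.8 and 40.9 in DKO-3 normoxia. Of its 4 DKS-5 values 3 lie below the filter, so it passed through DKO-3, and its difference was -1.10 with the constant of 16, -2.22 with 1 and -0.46 with 64. Both calls held without any single array, and that of CPT1C ended with the ACTB ratio as a covariate (0.108). In the regulator list ANGPTL4 was called higher in DKS-5 (0.63 ± 0.18, adjusted p = 0.0336). Among omissions of 1 array that call held only without DKS-5 hypoxia replicate 1 or DKS-5 normoxia replicate 1 (up to 0.166 without another). It also ended with a constant of 1 (0.0839), no filter (0.0751), no scaling (0.120), the mean of all probe sets (0.0548), every probe set tested on its own (0.0509) and the ACTB ratio as a covariate (0.119). In the coat list TMT1B, a droplet-associated methyltransferase, was lower by -0.69 ± 0.18 (adjusted p = 0.0262), which ended without DKS-5 hypoxia replicate 2, either DKS-5 normoxia array, DKO-3 hypoxia replicate 1 or DKO-3 normoxia replicate 2 (up to 0.130), with no filter (0.0820) and with the ACTB ratio as a covariate (0.381). Medians of the 6 lists, averaged over oxygen, ran from -0.48 in the synthesis list to 0.06 in the oxidation list, where the median of all genes was -0.01.

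**Figure D4:**
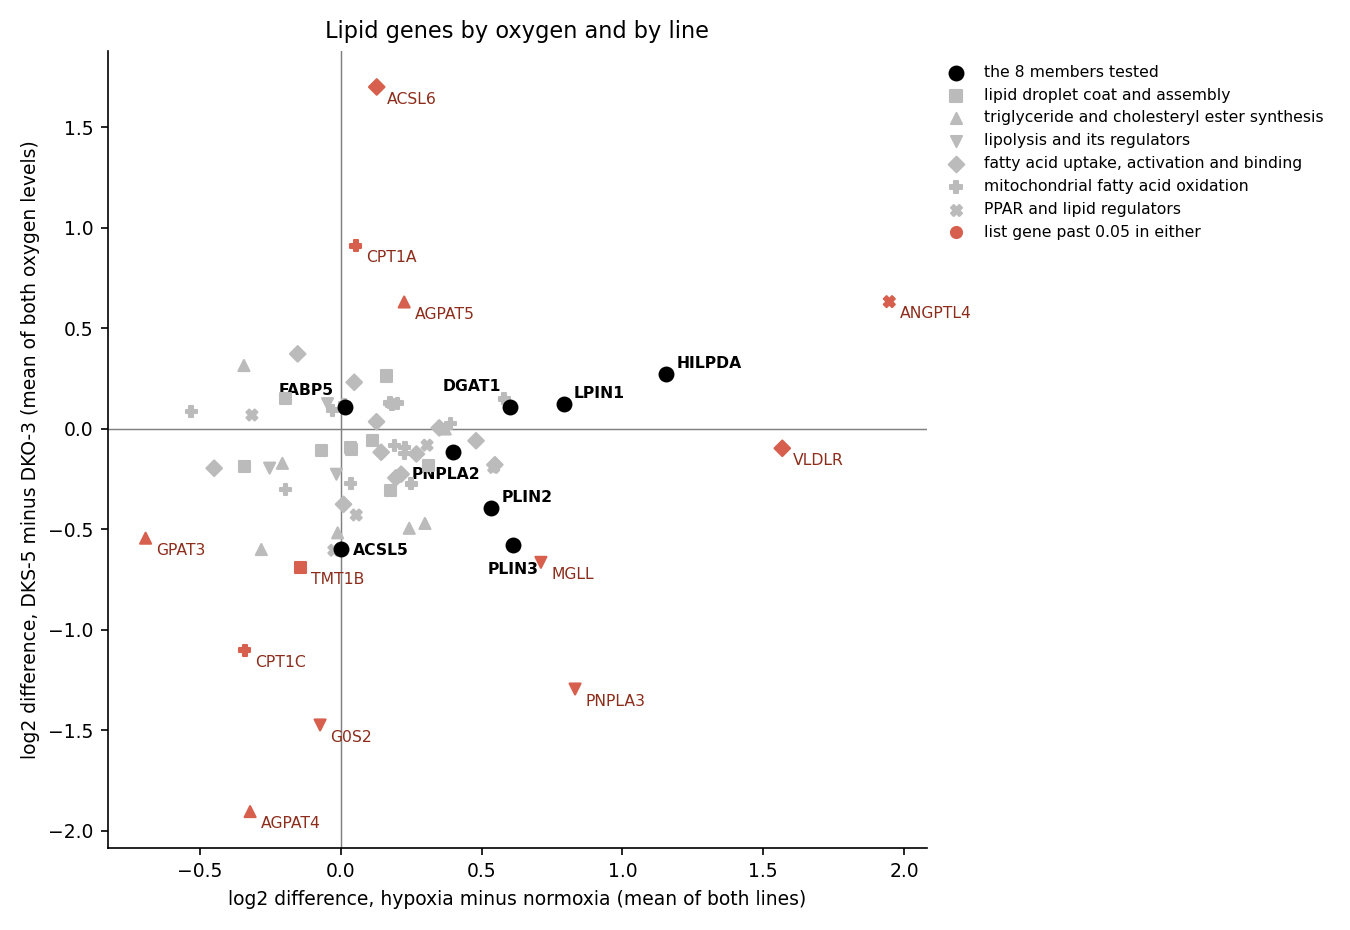
Each lipid gene tested, by its log2 difference in hypoxia (hypoxia minus normoxia, mean of both lines, horizontal) and by its line difference (DKS-5 minus DKO-3, mean of both oxygen levels, vertical). Black points are the 8 members and red points list genes past an adjusted p of 0.05 in either, with HILPDA at 1.15 across and 0.27 up, ACSL5 at 0.00 and -0.60, and VLDLR and ANGPTL4 farthest right at 1.57 and 1.95, the second a size that the constant of 16 sets.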

How the data were processed

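The deposited values are intensities, 1 per probe set and array. Per the submitters' processing notes the authors used MAS5, whose version and scaling target are not given in the sources used here. No detection calls entered the tests. The authors' 8 columns had 2% trimmed means of 133 to 202. Each was scaled to their median, 173, and log2(signal + 16) was taken of these deposited intensities. Probe sets were named by the platform annotation; 41097 name 1 gene. Genes were represented by the brightest probe set and kept where its mean passed the 40th percentile of all probe sets. The test was limma 3.58.1 in R 4.3.3, with 4 group means, a variance trend, 7 two-sided contrasts and Benjamini-Hochberg adjustment. The fit was run on simulated data with independent noise, which held no batch or RNA quality differences, so it does not bear on those limits. Named genes were the members, the genes past 0.05 in each list (up to 4 a comparison) and the 5 most like HILPDA and PLIN2; FABP1, below the filter, had no such comparison. Members and lists were chosen with earlier results of these data known. Alternatives changed the constant, filter, scaling, probe set rule, samples, covariates and variance model, or left out an array. Same-numbered arrays of the groups deviated with correlations of -0.09 to 0.33, highest between the lines at the same oxygen level (0.33 in hypoxia and 0.21 in normoxia). These values do not settle whether the numbers mark pairs or batches, and the main fit did not take them as pairs. Arrays of a group correlated at 0.976 to 0.989.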

Additional observations from a re-analysis of the deposited data

How the results depend on the processing

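No difference called in the report changed direction in the comparison where it was called. Among member differences that were not called, 91 values changed sign under another setting or without an array, while 956 member values kept both direction and call. Counts of the 8 members called moved as follows. In hypoxia in DKS-5, 1 became 0 with no filter, no array scaling, the mean of all probe sets, only the 4 arrays compared, or no variance trend. In hypoxia in DKO-3, 1 became 0 with no filter, the mean of all probe sets, every probe set tested on its own, the RNA quality covariate, or no variance trend. Averaged over the lines, 1 became 2 with the replicate block (LPIN1 beside HILPDA, adjusted p = 0.0431). Between the lines, 0 became 2 in hypoxia with no scaling (ACSL5 and PLIN3), and the averaged 1 became 0 with no filter or the RNA quality covariate and 2 with no scaling, the replicate block or no variance trend (PLIN3 beside ACSL5). With the mean of all probe sets PLIN3 passed in place of ACSL5 (adjusted p = 0.0375). Leaving out single arrays gave 0 to 1 members in hypoxia in DKS-5, 0 to 1 in DKO-3, 1 to 3 averaged over the lines (3 without DKS-5 hypoxia replicate 1: HILPDA, LPIN1 and DGAT1; 2 without DKO-3 hypoxia replicate 2) and 0 to 1 between the lines averaged over oxygen. The labels do not say whether the replicate numbers mark pairs or batches, so the block's results were not read as weaker or stronger effects.

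Over all genes, hypoxia averaged over the lines gave 152 calls, 63 to 325 under other settings (325 with the replicate block) and 58 to 764 without single arrays. DKS-5 against DKO-3 averaged over oxygen gave 1161, 446 to 1869 and 630 to 1517. In DKS-5 hypoxia gave 64, 33 to 86 and 29 to 294, and in DKO-3 44, 7 to 92 and 1 to 69. Between the lines the counts were 558 in hypoxia (128 to 2373, and 135 to 761) and 324 in normoxia (144 to 455, and 119 to 443). With no scaling the hypoxia median of all genes moved to -0.19 for DKS-5 and 0.20 for DKO-3. PLIN2, DGAT1 and FABP1 lie near or below the filter, where signal over background limits what can be seen. The 2 arrays a group limit the rest.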
